A study of Mus musculus with 138 samples.

Results

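The lambdoid suture joins the interparietal bone to the paired parietal bones at the back of the skull vault. The osteogenic front (OF) of each bone, the growing edge where new osteoblasts are added, had been cut out by laser-capture microdissection and its RNA sequenced, from embryos of E16.5 or E18.5 (embryonic days). The 20 libraries described here are those whose labels give the lambdoid suture and an OF region, 20 of 138 samples in the series and of the 100 libraries in its first laser-captured set: 5 of the interparietal OF and 5 of the parietal OF at each age. All were C57BL/6J embryos without a named mutation or treatment. Both fronts with the same replicate number at 1 age came from the same embryo, so each age holds 5 embryos. The 5 embryos at E16.5 came from 2 litters, 4 of them from 1 litter (replicate 5 is the other), and the 5 at E18.5 came from 4 litters. No litter held both ages, so the effect of age and the effect of litter cannot be told apart in any value below. The series holds fronts and suture mesenchyme (SM) at both ages. The comparison made here, of E18.5 with E16.5 within each front, asks which genes changed in both and which in only 1.

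An OF holds proliferating osteoprogenitors at its leading edge and, behind them, osteoblasts that lay down osteoid. Osteoid is mostly type I collagen. It is mineralized with the help of alkaline phosphatase and holds small acidic phosphoproteins such as osteopontin and DMP1. Osteoblasts that become buried in osteoid turn into osteocytes. The transcription factors RUNX2 and SP7 commit and keep cells in the osteoblast lineage, and hedgehog, BMP, FGF and Wnt signals between front and mesenchyme set the pace at which the bones approach each other. The interparietal bone has a mixed neural crest and mesodermal origin, and the parietal bone is mesodermal.

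Total counts ran from 8461589 to 11294521 per library, with 21967 to 24740 genes detected, and 19768 genes passed the filter on low counts and were tested. The values given are CPM, read counts per library scaled to 1000000 with the trimmed mean of M-values (TMM). The labelled tissue was checked against its markers. Ibsp, bone sialoprotein of early osteoblasts, averaged 4349 ± 362 CPM (SD, n = 5) in the interparietal OF and 8330 ± 3775 in the parietal OF at E16.5, against 56.3 ± 75.7 in the SM between them. Sp7 averaged 429 ± 28.6 and 619 ± 144 CPM against 71.7 ± 33.8 in the SM, and Runx2 averaged 802 ± 52.4 and 884 ± 102 against 505 ± 116. Osteocalcin (Bglap), a marker of mature osteoblasts, averaged below 1 CPM in every group of fronts. Mitochondrial counts made up 13.9 to 16.9% at E16.5 and 15.9 to 21.6% at E18.5, and haemoglobin counts 0.0149 to 1.59%. The part of either in the changes with age was not tested.

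The interparietal OF changed in 57 genes between the ages at an adjusted p under 0.05 in edgeR's quasi-likelihood test, 45 higher and 12 lower at E18.5, or 0.288% of the genes tested (28 higher and 24 lower on total counts without TMM). The parietal OF changed in 195 genes, 126 higher and 69 lower, or 0.986% (177 and 58 with median-ratio size factors). The mean change of both fronts passed in 650 genes, 323 higher and 327 lower, or 3.29% (393 and 227 with median-ratio size factors, 212 and 406 without TMM). That mean counts the 2 libraries of an embryo as independent. With the counts of each embryo summed over its fronts (5 embryos against 5, an alternative chosen after seeing the data, with the spread of those sums alone), 1764 genes passed (8.92%). The model took its spread from all 100 libraries of 20 groups. With the 20 lambdoid OF libraries alone, 509 genes passed in the interparietal OF (2.57%), 1119 in the parietal OF (5.66%) and 2244 for the mean (11.4%), and with the embryo as a random block 520, 1022 and 1955, the last fit also changing the tool to limma-voom. In bulk tissue, more cells of a type and more RNA per cell cannot be told apart.

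The same 24 genes passed in both fronts, all with the same sign, 19 higher and 5 lower at E18.5, which is 0.121% of all genes tested. They were 42.1% of the genes called in the interparietal OF and 12.3% of those called in the parietal OF. A further 33 genes passed in the interparietal OF alone, 30 of them with the same sign in the parietal OF, and 171 in the parietal OF alone, 166 with the same sign in the interparietal OF. No gene passed the test of the difference between the fronts' changes in edgeR, where 466 had an unadjusted p under 0.05. DESeq2 called 5, and 1 passed with the embryo as a fixed block.

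**Figure D1:**
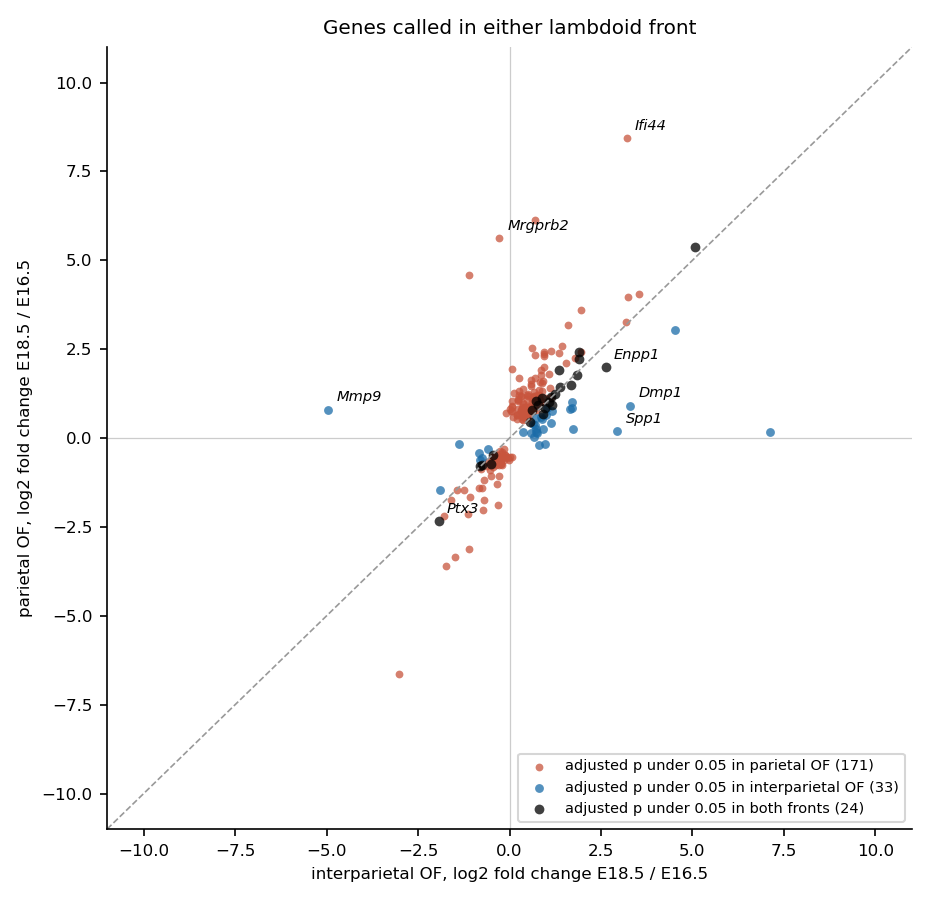
Change from E16.5 to E18.5 (log2 fold change) in the interparietal OF on the x axis and in the parietal OF on the y axis, for the 228 genes called in either front: 24 in both, 33 in the interparietal OF alone and 171 in the parietal OF alone. Most points lie in the quadrants where both fronts moved the same way.

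Among the genes that rose in both fronts at a mean of at least 5 CPM, the largest mean change was that of Enpp1, which makes the mineralization inhibitor pyrophosphate (ENSMUSG00000037370.13, mm10 chr10:24637914-24712159, minus strand). In the interparietal OF Enpp1 stood at 3.32, 2.41, 7.21, 4.23 and 6.52 CPM in E16.5 replicates 1 to 5 and at 22.6, 14.6, 32.3, 41.0 and 36.5 CPM at E18.5. Its parietal libraries stood at 19.5, 13.9, 19.2, 15.4 and 13.1 CPM and then at 57.6, 51.0, 57.8, 72.5 and 82.6 CPM. The ages did not overlap in either front, and every parietal library was above every interparietal library of the same age. The log2 fold change was 2.63 ± 0.37 (SE, adjusted p = 1.42e-06) in the interparietal OF and 1.99 ± 0.34 (adjusted p = 8.55e-05) in the parietal OF.

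Nfatc2, a transcription factor controlled by calcineurin, rose from 7.09, 20, 13.5, 7.84 and 9.21 CPM to 40.3, 25.6, 32.2, 68.6 and 46.0 in the interparietal OF (log2 fold change 1.89 ± 0.37, adjusted p = 0.00412). Its parietal values rose from 19.3, 14.7, 27.0, 7.32 and 7.46 CPM to 76.3, 68.1, 43.5, 91.0 and 76.6 (2.23 ± 0.37, adjusted p = 5.34e-05). The lowest E18.5 library was above the highest E16.5 library in both. Angptl2, a secreted glycoprotein of the angiopoietin-like family, rose from 85.3, 93.2, 94.2, 87.3 and 113 CPM to 393, 167, 173, 264 and 238 in the interparietal OF (1.38 ± 0.19, adjusted p = 1.42e-06). Angptl2 in the parietal OF rose from 117, 117, 116, 126 and 98.8 CPM to 364, 257, 245, 375 and 315 (1.44 ± 0.19, adjusted p = 1.17e-06), and replicate 1 was the highest interparietal library at E18.5. Lrrc15, a membrane protein with leucine-rich repeats found on mesenchymal cells, rose from 21.5 to 29.4 CPM up to 72.6 to 94.1 in the interparietal OF (1.69 ± 0.29, adjusted p = 0.000350) and from 28.3 to 50.8 up to 92.6 to 137 in the parietal OF (1.49 ± 0.29, adjusted p = 0.000950).

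Tnn, tenascin-W of periosteum and osteogenic cells, stood at 311, 353, 370, 357 and 285 CPM in the interparietal OF at E16.5 against 780, 672, 746, 795 and 725 at E18.5 (log2 fold change 1.15 ± 0.21, adjusted p = 0.00182). Tnn in the parietal OF stood at 467, 478, 537, 531 and 381 CPM and then at 960, 793, 966, 934 and 947 (0.94 ± 0.21, adjusted p = 0.00727). Tgfbi, a collagen-binding protein induced by TGF-beta, rose by 1.84 ± 0.40 (adjusted p = 0.0153) and 1.78 ± 0.40 (adjusted p = 0.00727) on the log2 scale, from 8.69 to 12.1 CPM up to 22.5 to 43.2 in the interparietal OF and from 7.05 to 16.9 up to 26.8 to 47.9 in the parietal OF. Podn, a small leucine-rich proteoglycan, rose by 1.34 ± 0.28 (adjusted p = 0.00952) and 1.90 ± 0.28 (adjusted p = 9.76e-06), from 11.5 to 18.8 CPM up to 34.8 to 54.7 and from 4.78 to 19.1 up to 34.3 to 46.2. The ages of these 3 genes did not overlap in either front. Without E16.5 replicate 4, Tgfbi (adjusted p = 0.0530) and Podn (adjusted p = 0.0582) missed the threshold in the interparietal OF.

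Periostin (Postn), collagen XXVII (Col27a1), the gelatinase Mmp2 and Dkk3, a secreted protein related to the Wnt inhibitors of the Dickkopf family, also passed in both fronts, with smaller mean changes (Col27a1 was singled out after its values were seen). Their log2 fold changes were 0.92 and 0.69 for Postn, 0.71 and 1.03 for Col27a1, 0.78 and 0.94 for Mmp2, and 0.61 and 0.80 for Dkk3, in the interparietal and parietal OF. Postn missed the threshold in the parietal OF, and Mmp2 in the interparietal OF, when any of 9 of the 10 embryos was left out (adjusted p up to 0.185 and 0.210).

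Fhl1, a LIM-domain protein best known from muscle, stood at 44.5, 46.9, 47.3, 43.3 and 60.7 CPM in the interparietal OF at E16.5 against 91.7, 78.0, 91.8, 99.9 and 87.4 at E18.5. The parietal libraries of Fhl1 stood at 55.6, 56.3, 65.4, 60.9 and 60.1 CPM and then at 149, 93.1, 107, 184 and 118. The ages did not overlap, and the log2 fold changes were 0.89 ± 0.19 (adjusted p = 0.00952) and 1.13 ± 0.19 (adjusted p = 5.34e-05). The tetraspanin Tspan2 rose by 1.91 ± 0.42 (adjusted p = 0.0186) from 2.69 to 6.08 CPM up to 6.46 to 26.3 in the interparietal OF, and by 2.43 ± 0.41 (adjusted p = 8.55e-05) from 4.14 to 8.61 up to 21.6 to 53.3 in the parietal OF. The interparietal call for Tspan2 was lost without E16.5 replicate 1 or 2 or E18.5 replicate 4 or 5 (adjusted p up to 0.10). Retreg1, a receptor for autophagy of the endoplasmic reticulum (1.13 and 1.16), Jam2, a junctional adhesion molecule (1.08 and 1.01), and Rabgap1l, a regulator of Rab proteins (0.97 and 0.85), completed the named genes that rose. Without 1 embryo the Retreg1 call was lost in 7 of the 10 interparietal and 2 of the 10 parietal fits (adjusted p up to 0.187 and 0.0966), and with litter sums in both fronts. The Jam2 call was lost in 6 of the 10 fits in each (adjusted p up to 0.145 and 0.106).

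Of the 5 genes that fell in both fronts, Ptx3, a secreted pentraxin of the innate immune system, fell most. In the interparietal OF Ptx3 stood at 18.9, 17.5, 17.6, 28.2 and 19.6 CPM at E16.5 against 6.96, 2.89, 11.3, 1.40 and 4.01 at E18.5 (log2 fold change -1.94 ± 0.45, adjusted p = 0.0242). The parietal libraries stood at 12.1, 13.3, 9.95, 18.2 and 19.3 CPM and then at 3.02, 2.81, 2.51, 2.71 and 3.39 (-2.33 ± 0.47, adjusted p = 0.00154). Within each front every E18.5 library was below every E16.5 library. The interparietal call was lost without E16.5 replicate 4 or E18.5 replicate 2, 4 or 5 (adjusted p up to 0.144). Igf2bp1, a fetal RNA-binding protein, fell from 64.3, 82.3, 65.8, 75.8 and 82.1 CPM to 44.3, 41.2, 50.8, 34.3 and 40.7 in the interparietal OF (-0.81 ± 0.18, adjusted p = 0.0195). Igf2bp1 in the parietal OF fell from 68.5, 59.4, 62.5, 76.5 and 76.9 CPM to 42.4, 43.7, 40.0, 38.7 and 34.8 (-0.78 ± 0.18, adjusted p = 0.0102), again without overlap. The amino acid transporters Slc38a1 (-0.75 and -0.77) and Slc38a4 (-0.52 and -0.72) and the cytoskeletal septin Sept11 (-0.46 and -0.47) were the other 3. Their interparietal calls were lost in 5, 7 and 7 of the 10 fits without 1 embryo (adjusted p up to 0.10, 0.361 and 0.117), and their parietal calls in 1, 0 and 1.

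In 21 of the 24 shared genes the libraries of the 2 ages did not overlap in either front, which restates in part how they were chosen. Over all genes tested, 5.09% did not overlap in the interparietal OF and 5.27% in the parietal OF. With each embryo left out in turn, Enpp1, Nfatc2, Lrrc15, Angptl2, Tnn, Fhl1 and Rabgap1l passed in both fronts in all 10 fits. With limma-voom in place of edgeR, 6 genes passed in the interparietal OF, 70 in the parietal OF and 3 in both (Angptl2, Tnn and Igf2bp1), and Enpp1 did not (adjusted p = 0.405 and 0.0639). The mean change of both fronts still passed with limma-voom in Enpp1, Nfatc2, Lrrc15, Tnn and Fhl1, as it did in Ptx3 and Igf2bp1.

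**Figure D2:**
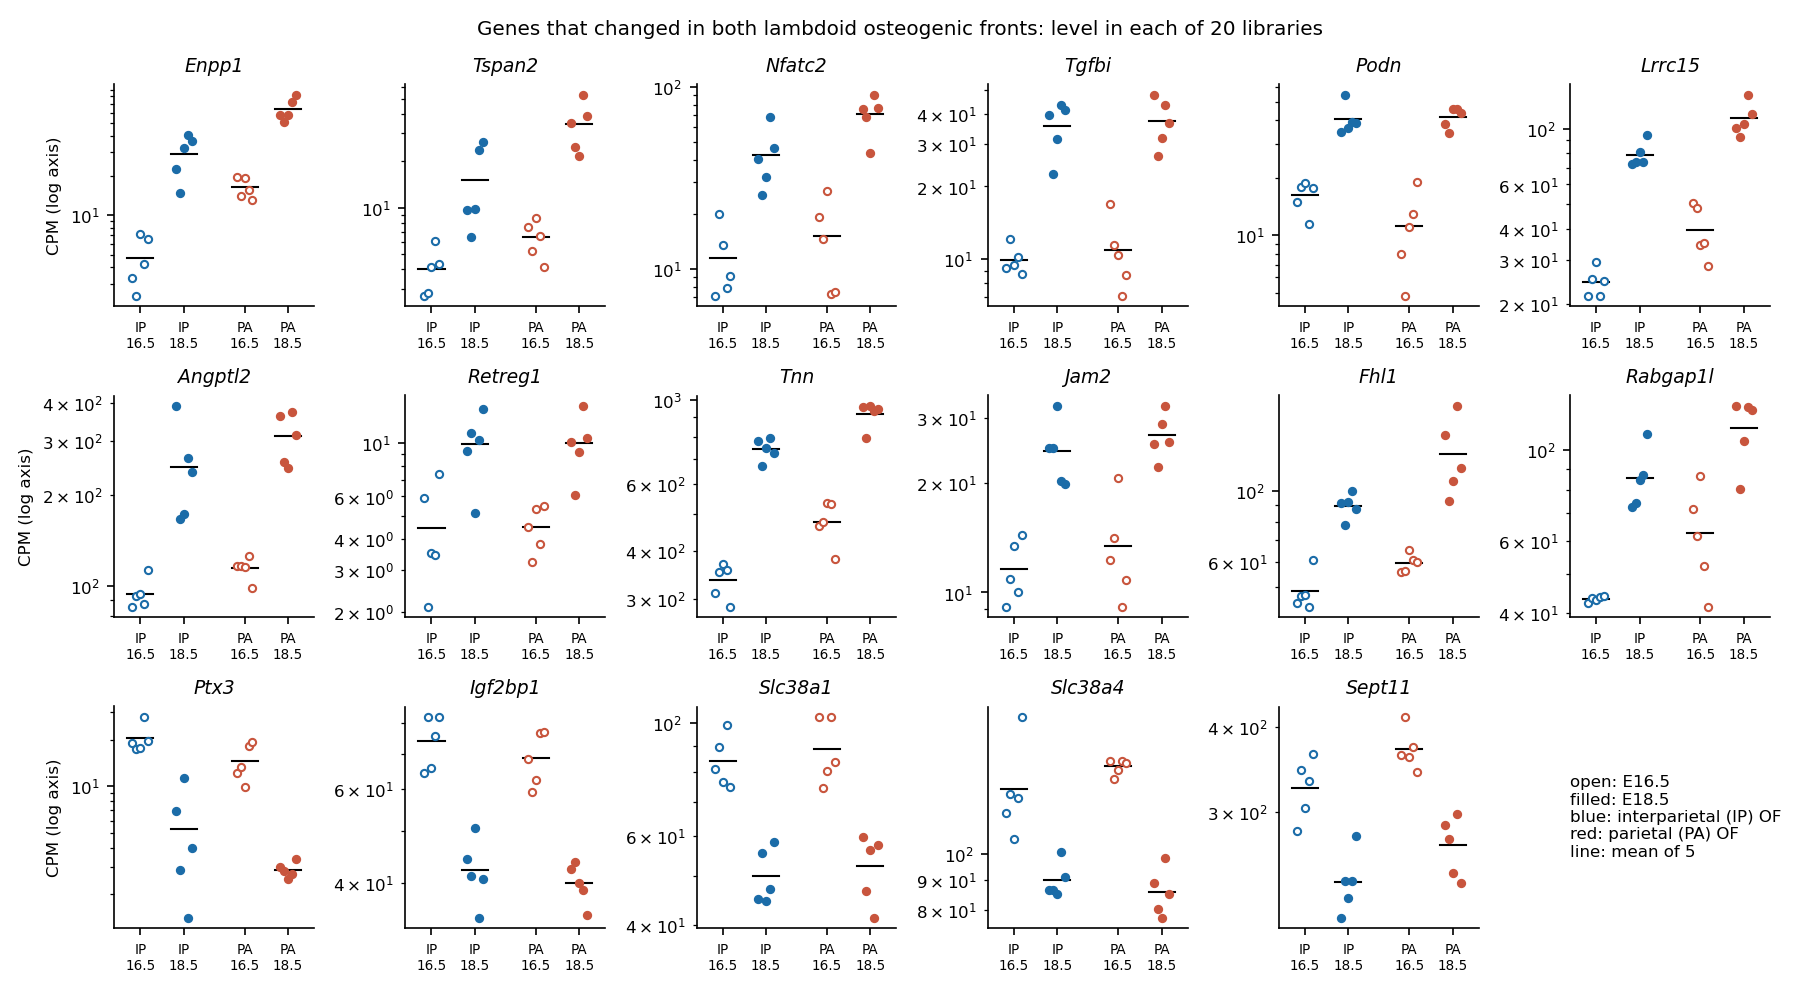
CPM (log axis) of the 17 genes named for the shared change, 1 panel per gene. Open symbols are E16.5 and filled symbols E18.5, blue the interparietal OF and red the parietal OF, each symbol 1 library and each line the mean of 5. Enpp1 rose from at most 7.21 to at least 14.6 CPM in the interparietal OF and from at most 19.5 to at least 51.0 in the parietal OF.

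Ifit1 (ENSMUSG00000034459.8), which binds foreign RNA lacking the host's cap methylation, was also among the genes that passed in both fronts, from very few reads. Interferon response genes are switched on by a factor complex that reads a DNA element made of a pair of GAAA repeats, and their products act against viruses. The 5 interparietal libraries held 0, 0, 3, 1 and 0 reads of Ifit1 at E16.5 against 3, 78, 29, 4 and 12 at E18.5. The 5 parietal libraries held 0, 0, 1, 0 and 0 reads and then 13, 1, 9, 15 and 18. Of the 126 interparietal reads at E18.5, 78 came from replicate 2. The ratio of pooled CPM was 36.3 (95% counting interval 13.8 to 135) in the interparietal OF and 59.0 (10.2 to 2372) in the parietal OF, intervals that cover counting error only. Ifit1 passed in both (adjusted p = 0.0441 and 0.0377), but not with the embryo as a random block (adjusted p = 0.0511 and 0.0647), and it was lost in each front in 7 of the 10 fits without 1 embryo (adjusted p up to 0.260 and 0.119).

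Ifi44, an interferon-induced protein of little known function, had no read in any parietal library at E16.5 against 30, 21, 11, 53 and 19 reads at E18.5, at least 47.1-fold higher against 3 counts over the group (lower 95% counting limit of the ratio 37.7, adjusted p = 0.000591, and called in all 10 fits without 1 embryo). Ifi44 in the interparietal OF had 11 reads and then 94, a ratio of 9.85 (5.26 to 20.4, adjusted p = 0.262). Oasl2, an oligoadenylate synthetase-like protein, had 51 reads in the parietal OF at E16.5 against 456 at E18.5, a ratio of 9.42 (7.04 to 12.8, adjusted p = 0.0453), and 42 and 337 in the interparietal OF, a ratio of 9.24 (6.69 to 13.1, adjusted p = 0.118). The parietal call for Oasl2 was lost in 9 of the 10 fits without 1 embryo (adjusted p up to 0.185). Of the 22 interferon response genes on the list, 21 were tested. In the interparietal OF 1 rose and 20 had a positive log2 fold change, in the parietal OF 3 rose and 20 were positive (0.228% and 0.637% of all genes rose in these fronts), and for the mean of both fronts 6 rose (Ifit1, Oas2, Oasl2, Ifi44, Rtp4 and Gbp2) and none fell, against 1.63% of all genes called higher in that comparison. With the lambdoid OF libraries alone, 13 rose for the mean (5.39% of all genes did) and none fell.

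The 250 bases before and 50 after the start of transcription of 4 of these genes, the 3 named from both or 1 front and Gbp2, which passed for the mean, are shown because the response element can be read in some of them and not in others (RefSeq, GRCm38.p6, 5′ to 3′ on the strand of the gene; capitals mark the motif, GAAA and GAAA with 2 bases of any kind between them, or its reverse complement with TTTC).
Ifit1, chr19:34640639-34640938, plus strand: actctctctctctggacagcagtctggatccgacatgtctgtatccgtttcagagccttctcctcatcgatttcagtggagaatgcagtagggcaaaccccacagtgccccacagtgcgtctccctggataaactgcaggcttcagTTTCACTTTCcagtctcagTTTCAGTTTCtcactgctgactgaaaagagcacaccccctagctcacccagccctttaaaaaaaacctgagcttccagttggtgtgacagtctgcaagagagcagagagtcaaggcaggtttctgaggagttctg
Gbp2, chr3:142620413-142620712, plus strand: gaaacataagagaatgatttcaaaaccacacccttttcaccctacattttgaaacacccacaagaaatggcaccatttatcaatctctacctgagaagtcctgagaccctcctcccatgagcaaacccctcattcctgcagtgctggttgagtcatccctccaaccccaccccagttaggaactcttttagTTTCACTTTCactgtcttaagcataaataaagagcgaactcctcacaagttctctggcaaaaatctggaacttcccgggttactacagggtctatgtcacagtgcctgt
Ifi44, chr3:151749861-151750160, minus strand: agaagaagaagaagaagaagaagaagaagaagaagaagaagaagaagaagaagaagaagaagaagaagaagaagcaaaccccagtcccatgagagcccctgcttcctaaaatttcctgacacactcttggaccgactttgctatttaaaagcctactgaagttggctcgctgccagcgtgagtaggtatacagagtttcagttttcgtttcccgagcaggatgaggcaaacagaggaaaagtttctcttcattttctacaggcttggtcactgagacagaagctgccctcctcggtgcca
Oasl2, chr5:114896684-114896983, plus strand: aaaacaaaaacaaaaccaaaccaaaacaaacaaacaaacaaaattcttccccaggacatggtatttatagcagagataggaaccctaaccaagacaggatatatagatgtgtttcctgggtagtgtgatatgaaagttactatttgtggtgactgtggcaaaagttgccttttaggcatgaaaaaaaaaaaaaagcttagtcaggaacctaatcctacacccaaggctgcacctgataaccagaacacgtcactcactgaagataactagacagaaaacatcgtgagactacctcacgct

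Ifit1 held 2 matches, which begin 104 and 85 bases before the start, and Gbp2 held 1, which begins 59 bases before it. Ifi44 and Oasl2 held none, which says only that these letters are not in these windows. Of the 22 interferon response genes 17 had a window and 11 of those held the motif on either strand (64.7%), against 1 of the 13 genes with a window named for the shared change (7.69%) and 1079 of 27025 genes with a window (3.99%). A match is a description of the letters, not a site in use.

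Of 17 genes of the bone matrix list 15 were tested. In the interparietal OF 5 rose (Spp1, Dmp1, Col1a2, Col11a1 and Sparc), none fell (0.228% of all genes rose there) and the median log2 fold change was 0.64, and in the parietal OF none passed and the median was 0.12, against medians of -0.00794 and -0.0105 over all genes tested. With the lambdoid OF libraries alone 7 rose in the interparietal OF (1.47% of all genes did) and 1 in the parietal OF (2.67%). The difference between the fronts did not pass in any of the 15.

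Spp1, osteopontin, stood at 10.8, 3.67, 13.3, 5.99 and 5.04 CPM in the interparietal OF at E16.5 against 26.7, 38.4, 58.8, 66.0 and 108 at E18.5. The parietal libraries stood at 149, 77.9, 117, 18 and 9.71 CPM at E16.5 against 79.2, 90.9, 99.2, 74.7 and 80.1 at E18.5. Spp1 rose in the interparietal OF (log2 fold change 2.94 ± 0.67, adjusted p = 0.0224) without overlap of the ages. In the parietal OF the log2 fold change was 0.19 ± 0.60 (adjusted p = 0.974), where replicates 4 and 5 at E16.5 lay far below the other 3 and every E18.5 library lay above those 2 and below replicates 1 and 3. The difference between the fronts was 2.75 ± 0.89 on the log2 scale (unadjusted p = 0.00265, adjusted p = 1.000). The interparietal call was lost without E16.5 replicate 2, 4 or 5 or E18.5 replicate 5 (adjusted p up to 0.0911).

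Dmp1, the acidic phosphoprotein of osteocytes and late osteoblasts, rose from 2.78, 5.87, 5.69, 4.49 and 2.00 CPM to 18.3, 27.2, 22.9, 40.7 and 95.7 in the interparietal OF (3.30 ± 0.70, adjusted p = 0.0110, and 0.0848 without E18.5 replicate 5). Parietal Dmp1 stood at 25.0, 44.2, 32.1, 5.00 and 3.33 CPM and then at 33.6, 50.4, 28.7, 29.9 and 63.0 (0.91 ± 0.63, adjusted p = 0.720), with the lowest values again in E16.5 replicates 4 and 5. Col1a2, a chain of type I collagen, rose from 10629, 10843, 10785, 10225 and 10706 CPM to 16540, 16197, 18449, 16142 and 21051 in the interparietal OF (0.73 ± 0.16, adjusted p = 0.0153, and 0.0738 without E18.5 replicate 5). Parietal Col1a2 stood at 16811, 28349, 21870, 13490 and 10523 CPM at E16.5 against 21471, 22731, 18355, 21934 and 18686 at E18.5 (0.18 ± 0.16, adjusted p = 0.822). The 5 interparietal libraries at E16.5 lay within 10225 to 10843 CPM of Col1a2, and the 5 parietal libraries of the same embryos spread over 10523 to 28349.

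The summed CPM of the bone matrix list showed the same spread. It ran from 35608 to 39032 in the interparietal OF at E16.5 and from 53553 to 68216 at E18.5, without overlap. In the parietal OF it was 56701, 97200, 74830, 45856 and 37083 in E16.5 replicates 1 to 5, and 63409 to 78650 at E18.5. Replicate 2, the highest, was also the parietal library with the most haemoglobin Hbb-bs (10894 CPM), and replicates 4 and 5, the lowest, were those with the least (1094 and 488 CPM), at the same age and front. In the interparietal OF at E16.5 replicate 4 had the most Hbb-bs (2673 CPM) and the lowest sum (35608). The parietal E18.5 library with the most Hbb-bs, replicate 5, also had the lowest sum (63409). At E18.5 in the interparietal OF replicate 5 had the most Hbb-bs (2087 CPM) and the highest sum (68216). The part of blood content in these sums was not tested. Col11a1, a minor fibrillar collagen, stood at 472 to 623 CPM and then at 869 to 1145 in the interparietal OF (0.80 ± 0.20, adjusted p = 0.0389), and at 759 to 1924 and then at 1010 to 1174 in the parietal OF (-0.19 ± 0.19, adjusted p = 0.866). The Col11a1 call was lost in 9 of the 10 fits without 1 embryo (adjusted p up to 0.109), and that of Sparc, osteonectin (0.72 and 0.26), in 8 of 10 (adjusted p up to 0.130).

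The enzymes that modify and cross-link collagen numbered 20, all tested, of which 2 rose in the interparietal OF (Loxl2 and Plod2), 1 in the parietal OF (P4ha3) and 4 for the mean, with none lower (0.228%, 0.637% and 1.63% of all genes rose). Loxl2, a lysyl oxidase that cross-links collagen, rose from 249, 287, 275, 263 and 240 CPM to 605, 441, 610, 582 and 640 in the interparietal OF (1.13 ± 0.17, adjusted p = 1.72e-05) and kept the call in all 10 fits without 1 embryo. Parietal Loxl2 stood at 481, 823, 575, 458 and 348 CPM and then at 768, 610, 642, 920 and 627 (0.41 ± 0.17, adjusted p = 0.328), and the ages overlapped through replicate 2. Of 10 mineralization genes Enpp1 rose in both fronts and Ank, the pyrophosphate transporter, for the mean (log2 fold change 0.65 ± 0.15, adjusted p = 0.00535), while alkaline phosphatase (Alpl) stood at 409 ± 17.1 and 409 ± 61.0 CPM at the 2 ages in the interparietal OF (mean change -0.09, adjusted p = 0.923). Ibsp had a mean change of 0.39 (adjusted p = 0.818) and Phex, an endopeptidase of osteocytes, 0.59 (adjusted p = 0.475). The lineage factors Runx2 (-0.06, adjusted p = 0.857) and Sp7 (-0.25, adjusted p = 0.634) did not pass, and 1 of the 14 osteoblast transcription factors did, Zfp521. With the lambdoid OF libraries alone 1 of the 14 rose and 3 fell in the parietal OF (2.67% and 2.99% of all genes did). For the mean 1 rose and 1 fell in that fit (5.39% and 5.96% of all genes did). Of 13 osteocyte genes tested Dmp1 and Cd44, a receptor for hyaluronan and osteopontin (0.55 ± 0.15, adjusted p = 0.0230), rose for the mean. For the mean 2 of 23 skull patterning factors passed. Tbx2 rose (0.93 ± 0.28, adjusted p = 0.0369). Alx1 fell (-0.87 ± 0.25, adjusted p = 0.0279, and 0.0630 with the embryo as a random block). With the lambdoid OF libraries alone (where 5.96% of all genes fell) or with embryo sums, none of the 23 fell for the mean, Alx1 included.

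Zfp521, a zinc finger protein that restrains RUNX2, gave the smallest unadjusted p of the difference between the fronts among all genes (0.000138, adjusted p = 1.000). In the parietal OF it stood at 180, 129, 171, 249 and 213 CPM at E16.5 against 308, 298, 310, 345 and 339 at E18.5 (0.76 ± 0.13, adjusted p = 8.55e-05), and the call held in all 10 fits without 1 embryo. The interparietal libraries stood at 265, 265, 307, 360 and 330 CPM and then at 384, 352, 259, 274 and 299 (0.04 ± 0.13, adjusted p = 1.000). The ages were apart in the parietal OF and overlapped in the interparietal OF, and at E18.5 the 2 fronts overlapped. Ltbp1, which stores TGF-beta in the matrix (-0.11 and 0.71, adjusted p = 1.000 and 0.00780), Eln, elastin (0.07 and 1.05, adjusted p = 1.000 and 0.00111), and Nhsl2 (0.24 and 1.09, adjusted p = 0.909 and 1.80e-05) also passed in the parietal OF alone and were named for the difference. In the other direction Fam214a passed in the interparietal OF (0.97 and -0.16, adjusted p = 0.0236 and 0.909) and Nbas, of vesicle transport, fell in the parietal OF (0.06 and -0.52, adjusted p = 1.000 and 0.0300), while Serpine2 and Rb1 passed in neither. Sparcl1 and Prdm11, with the higher change in the parietal OF, also passed in neither. None of these 12 genes, Spp1 and Col11a1 included, had an adjusted p of the difference below 1.000. Without E16.5 replicate 2 Ltbp1 missed the threshold in the parietal OF (adjusted p = 0.0896).

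**Figure D3:**
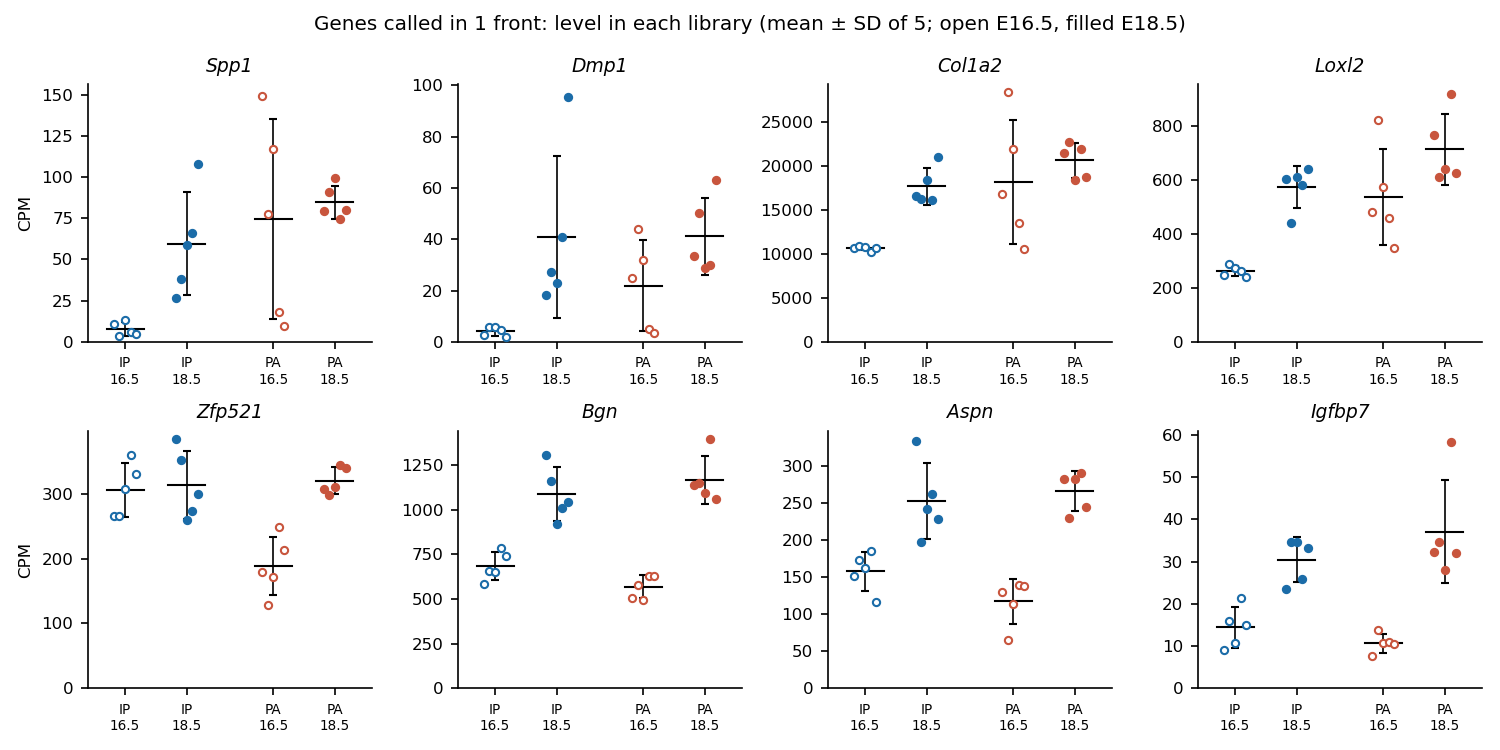
Mean CPM ± SD (n = 5 libraries) of 8 genes that passed in 1 front, at E16.5 and E18.5, with the interparietal OF in blue and the parietal OF in red. Spp1, Dmp1, Col1a2 and Loxl2 passed in the interparietal OF, and Zfp521, Bgn, Aspn and Igfbp7 in the parietal OF. For Spp1 and Col1a2 the parietal E16.5 bar is the widest of the panel.

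Collagens and proteoglycans that surround or join the fibrils passed in either front. Of 23 genes, all tested, 7 rose in the parietal OF (0.637% of all genes did), 2 in the interparietal OF (0.228%) and 10 for the mean (1.63%). Fbn1, fibrillin-1, fell for the mean, and no difference between the fronts passed. Biglycan (Bgn), a proteoglycan of bone and fibrous tissue, stood at 507, 580, 494, 631 and 627 CPM in the parietal OF at E16.5 against 1136, 1150, 1091, 1395 and 1059 at E18.5 (1.04 ± 0.18, adjusted p = 8.55e-05). Interparietal Bgn stood at 586, 658, 650, 788 and 739 CPM and then at 1307, 1163, 917, 1011 and 1041 (0.67 ± 0.18, adjusted p = 0.0729). The ages did not overlap in either front, though only the parietal change passed. Asporin (Aspn), a relative of biglycan that binds collagen, stood at 65.8 to 140 CPM and then at 230 to 291 in the parietal OF (1.18 ± 0.18, adjusted p = 2.33e-05) and at 116 to 186 and then at 197 to 334 in the interparietal OF (0.68 ± 0.18, adjusted p = 0.0840). The chains of collagen VI, which surrounds cells and fibrils, moved by 0.89 and 0.83 in the parietal OF (Col6a1, adjusted p = 8.55e-05, and Col6a2, adjusted p = 3.95e-05) and by 0.56 and 0.47 in the interparietal OF (adjusted p = 0.0847 and 0.117). The 4 parietal calls held in all 10 fits without 1 embryo.

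Of 14 genes of the secretory pathway none passed in the interparietal OF, 8 of them positive, and in the parietal OF 3 fell (0.349% of all genes did) and all 14 were negative. Manf, a stress-induced protein of the endoplasmic reticulum, stood at 110, 146, 100, 102 and 79.7 CPM in the parietal OF at E16.5 against 63.0, 67.4, 67.7, 46.8 and 40.3 at E18.5 (-0.91 ± 0.21, adjusted p = 0.0125), and at 69.6 to 101 and then 43.9 to 66.0 in the interparietal OF (-0.54 ± 0.21, adjusted p = 0.473). Hspa5, the chaperone BiP, stood at 894, 766, 891, 947 and 753 CPM and then at 625, 644, 535, 277 and 530 in the parietal OF (-0.70 ± 0.18, adjusted p = 0.0239), with replicate 4 lowest, and at 595 to 670 and then 462 to 604 in the interparietal OF (-0.28 ± 0.18, adjusted p = 0.877). Pdia4, a disulphide isomerase, was the third (-0.71, adjusted p = 0.0286). Without E18.5 replicate 4 the parietal calls of Manf, Hspa5 and Pdia4 were lost, among 3, 5 and 6 of the 10 fits without 1 embryo (adjusted p up to 0.102, 0.199 and 0.220).

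Of 32 cell cycle genes all 32 had a negative log2 fold change in the interparietal OF, none of them called, and 31 in the parietal OF, 2 of them called (Ccnd1 and Rrm2). For the mean 14 fell (1.65% of all genes did) and none rose, among them Ccnd1, Mcm6, Rrm2, Aurka, Plk1 and Cdk1, and 27 fell with the lambdoid OF libraries alone (5.96% of all genes did). The median log2 fold change of the list was -0.42 and -0.49 in the 2 fronts, near 0 over all genes. Cyclin D1 (Ccnd1), which drives entry into the cycle, stood at 239, 246, 254, 229 and 275 CPM and then at 160, 145, 150, 172 and 175 in the interparietal OF (-0.63 ± 0.21, adjusted p = 0.292). Parietal Ccnd1 stood at 282, 270, 265, 364 and 267 CPM and then at 183, 189, 154, 167 and 153 (-0.78 ± 0.21, adjusted p = 0.0488, and above the threshold in every fit without 1 embryo). The ages did not overlap in either front, and the mean change was -0.70 ± 0.15 (adjusted p = 0.00160). Mcm6, a subunit of the replicative helicase, stood at 73.3 to 85.8 CPM and then at 40.9 to 67.8 in the interparietal OF and at 48.0 to 81.3 and then at 39.0 to 58.2 in the parietal OF (mean change -0.58 ± 0.11, adjusted p = 0.000401). The proliferation markers Mki67 (-0.28, adjusted p = 0.402) and Top2a (-0.33, adjusted p = 0.117) did not pass. The summed CPM of the list was 2935 to 3552 at E16.5 and 2298 to 2770 at E18.5 in the interparietal OF, and 2908 to 4316 and then 2473 to 2646 in the parietal OF, without overlap in either.

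**Figure D4:**
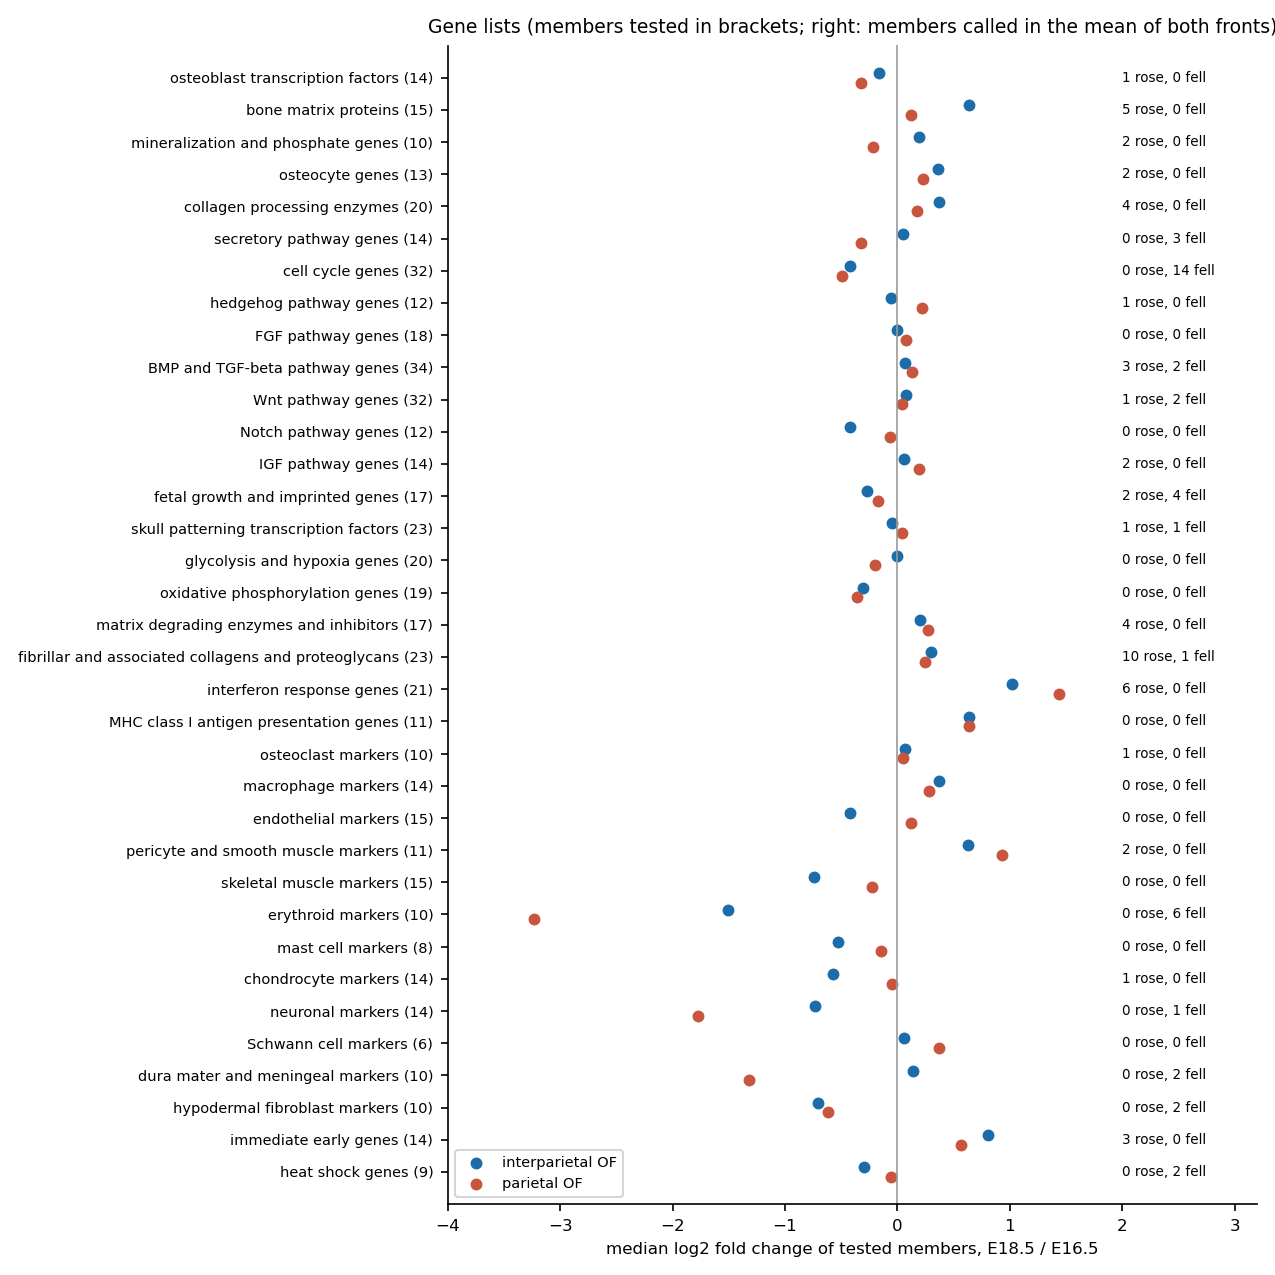
Median log2 fold change from E16.5 to E18.5 of each gene list with at least 5 tested members, in the interparietal OF (blue) and the parietal OF (red), with counts of members called higher and lower at the right. The bone matrix median is 0.64 in the interparietal OF and 0.12 in the parietal OF, and the erythroid medians are the lowest, at -1.51 and -3.23.

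Hedgehog signalling runs from the ligand IHH of osteoblasts to the receptor PTCH1, which is itself a target gene, as are Gli1 and Hhip. Ihh stood at 9.06, 7.44, 11.6, 8.98 and 18.7 CPM in the interparietal OF at E16.5 against 18.4, 23.4, 11.8, 17.6 and 16.2 at E18.5 (0.64 ± 0.57, adjusted p = 0.971), and at 14.7 to 25.1 and then 14.9 to 22.2 in the parietal OF (-0.00 ± 0.56, adjusted p = 1.00). Ptch1 stood at 867 to 941 CPM and then at 686 to 1031 in the interparietal OF (-0.12 ± 0.21) and at 755 to 1373 and then at 777 to 1010 in the parietal OF (-0.22 ± 0.21). The mean changes of Gli1 (0.28 ± 0.21) and Hhip (-0.15 ± 0.24) also stayed above the threshold (adjusted p = 0.615 and 0.860). Gli1, the transcription factor most used as a readout, stood at 78.1 to 87.6 CPM and then at 98.1 to 119 in the parietal OF, where the ages did not overlap (0.36 ± 0.30, adjusted p = 0.803). Of the 12 hedgehog genes tested 1 passed, the co-receptor Cdon, in the parietal OF (0.66, adjusted p = 0.0286), where 0.637% of all genes rose. Cdon did not pass when any of 5 embryos was left out (adjusted p up to 0.165). No gene passed of 18 in the FGF list or 12 in the Notch list, in either front or the mean. With the lambdoid OF libraries alone 3 of the 12 hedgehog genes rose for the mean (5.39% of all genes did). Of the 18 FGF genes 1 rose and 1 fell (5.96% of all genes fell).

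Over all genes, 0.986% passed in the parietal OF, and 1.63% rose and 1.65% fell for the mean. In the BMP and TGF-beta list of 34 genes, 2 passed in the parietal OF, Tgfb2, a TGF-beta ligand (0.87, adjusted p = 0.0186), and Ltbp1. For the mean 3 rose, among them Ltbp3, a binding protein of latent TGF-beta (0.56 ± 0.13, adjusted p = 0.00648). Ltbp1 did not pass for the mean (0.30 ± 0.11, adjusted p = 0.153). The 2 that fell for the mean were Id3, a BMP target (-0.49 ± 0.12, adjusted p = 0.00891), and Chrdl1, a BMP antagonist (-0.88 ± 0.21, adjusted p = 0.00648). In the Wnt list of 32 Dkk3 rose in both fronts, and 2 inhibitors fell for the mean, Sfrp1 (-0.90 ± 0.21, adjusted p = 0.00627) and Dkk2 (-0.98 ± 0.25, adjusted p = 0.0117). With the lambdoid OF libraries alone 4 of the 32 Wnt genes rose and 5 fell for the mean. In that fit 7 of the 34 BMP and TGF-beta genes rose and 4 fell, and 5.39% of all genes rose and 5.96% fell. Of 14 genes of the IGF pathway Igfbp7, a secreted binding protein also made by vessels, rose in the parietal OF from 7.55, 13.9, 10.7, 10.9 and 10.6 CPM to 32.3, 34.6, 28, 58.4 and 32.1 (1.79 ± 0.31, adjusted p = 0.000103). Interparietal Igfbp7 stood at 9.06, 16.0, 10.7, 21.5 and 14.9 CPM and then at 23.6, 34.7, 34.7, 25.8 and 33.3 (1.08 ± 0.30, adjusted p = 0.115), without overlap of the ages. The fetal growth factor Igf2 rose for the mean (0.53 ± 0.13, adjusted p = 0.00885), from 72.7 to 105 CPM up to 112 to 148 in the interparietal OF and from 76.3 to 107 up to 123 to 145 in the parietal OF.

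Of 17 fetal growth and imprinted genes 2 rose and 4 fell for the mean (1.63% and 1.65% of all genes did). H19, the imprinted RNA beside Igf2, was among those that rose (0.47 ± 0.11, adjusted p = 0.00708), and Peg10, a retrotransposon-derived gene (-0.71 ± 0.13, adjusted p = 0.000116), and the cell cycle inhibitor Cdkn1c (-0.46 ± 0.10, adjusted p = 0.00194) fell. None of 20 glycolysis and hypoxia genes and none of 19 oxidative phosphorylation genes passed in either front, although all 19 of the latter had a negative log2 fold change in both (medians -0.31 and -0.36). With the lambdoid OF libraries alone 2 of the 19 fell in the parietal OF (2.99% of all genes did) and 10 for the mean (5.96%). Of 17 matrix degrading enzymes and inhibitors 4 rose for the mean (Mmp2, Mmp23, Timp2 and Adamts1) and none fell (1.63% of all genes rose). Mmp9, a gelatinase of osteoclasts and leukocytes, fell in the interparietal OF from 0.987, 0.734, 4.84, 13.6 and 1.04 CPM to 0.342, 0, 0, 0 and 0.334 (adjusted p = 0.0328), but not with the embryo as a random block (adjusted p = 0.0956) nor in 7 of the 10 fits without 1 embryo (adjusted p up to 0.286).

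Markers of other cell types were measured in the same libraries. All 10 tested erythroid genes had a negative log2 fold change in both fronts, and in the parietal OF 4 fell (Hbb-bt, Hbb-bs, Alas2 and Slc4a1) against 0.349% of all genes called lower there. Hbb-bs, adult beta-globin, stood at 4133, 10894, 3248, 1094 and 488 CPM in the parietal OF at E16.5 against 137, 156, 493, 160 and 1337 at E18.5 (-3.12 ± 0.82, adjusted p = 0.0338), and at 626, 990, 530, 2673 and 720 and then 110, 174, 140, 68.9 and 2087 in the interparietal OF (-1.10 ± 0.76, adjusted p = 0.912). The ages overlapped in both fronts, E18.5 replicate 5 held the most Hbb-bs of its age in each, and the parietal call was lost in 6 of the 10 fits without 1 embryo (adjusted p up to 0.261). Pericyte and smooth muscle markers had a summed CPM of 326 to 454 and then 505 to 728 in the interparietal OF, and of 326 to 421 and then 543 to 713 in the parietal OF, without overlap. All 11 had a positive log2 fold change in the parietal OF and 10 in the interparietal OF. Rgs5, a pericyte marker, rose in the parietal OF from 4.49, 23.6, 3.90, 20.1 and 2.43 CPM to 36.9, 79.9, 54.6, 84.0 and 38.2 (2.44 ± 0.53, adjusted p = 0.00461). In the interparietal OF Rgs5 stood at 12.7 to 73.3 CPM and then at 64.7 to 101, and the ages overlapped (1.13 ± 0.49, adjusted p = 0.608).

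None of 15 endothelial markers passed in either front (1 rose in the parietal OF with the lambdoid OF libraries alone), and the summed CPM overlapped between the ages (249 to 477 and then 212 to 334 in the interparietal OF, 235 to 348 and then 289 to 365 in the parietal OF). None of 14 macrophage markers passed, though 2 rose in the parietal OF (2.67% of all genes did) and 3 for the mean (5.39%) with the lambdoid OF libraries alone. Their sum was 108 to 178 CPM and then 147 to 205 in the interparietal OF, and 127 to 217 and then 183 to 216 in the parietal OF, beside the interferon response list, whose sum was 59.3 to 76.5 and then 90.0 to 145, and 59.0 to 77.5 and then 86.3 to 115. All 13 granulocyte markers averaged under 1 CPM over the 20 front libraries. Of the 10 osteoclast markers tested Mmp9 fell in the interparietal OF, as above (0.288% of all genes passed there). Nfatc1 rose for the mean (0.54 ± 0.12, adjusted p = 0.00197, against 1.63% of all genes). In each front 5 of the 10 were positive and 5 negative, with medians of 0.07 and 0.05. Their sum was 243 to 296 CPM and then 273 to 348 in the interparietal OF, and 261 to 317 and then 316 to 361 in the parietal OF, with overlap in both. Hypodermal (Fbn1 and Mfap5, 2 of 10), meningeal (Ccn3 and Aldh1a2, 2 of 10) and neuronal (Gap43, 1 of 14) markers fell for the mean (1.65% of all genes did). Immediate early genes, which respond within minutes to handling of tissue, rose for the mean in 3 of 14 (Fosb, Dusp1 and Egr2, against 1.63% of all genes), with sums of 128 to 177 CPM and then 151 to 454 in the interparietal OF. Egr2 missed the threshold with the embryo as a random block (adjusted p = 0.0674), and Dusp1 without E18.5 replicate 5 (adjusted p = 0.201). No gene passed, in either front or for the mean, of the lists of skeletal muscle, Schwann cell, mast cell, keratinocyte, adipocyte, lymphoid, sex-linked and MHC class I genes. All 11 MHC class I genes tested had a positive log2 fold change in both fronts. Their list sum was 145 to 172 CPM and then 191 to 215 in the interparietal OF, without overlap, and overlapped in the parietal OF. The lymphoid sum was 100 to 111 and then 61.5 to 97.2 in the interparietal OF, without overlap, and overlapped in the parietal OF. Of the 10 lymphoid markers 9 averaged under 1 CPM over the 20 front libraries, so that sum was mostly the level of the remaining gene. The 2 lymphoid markers tested had opposite signs in each front. With the lambdoid OF libraries alone 3 of 11 MHC class I genes rose for the mean, and 2 of 15 skeletal muscle and 2 of 8 mast cell markers fell. Of 4 keratinocyte markers 1 rose and 1 fell in that fit, where 5.39% of all genes rose and 5.96% fell. Of 14 chondrocyte markers Acan rose for the mean (0.69 ± 0.17, adjusted p = 0.0109), while 8 were negative and the median was -0.27. The heat shock genes Hspd1 and Hspe1 fell (-0.61 and -0.59). Of the 9 heat shock genes tested 2 fell for the mean (1.65% of all genes did), 2 were positive and the median was -0.15. Whether the cell content of the captured areas took part in any change described here was not tested.

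**Figure D5:**
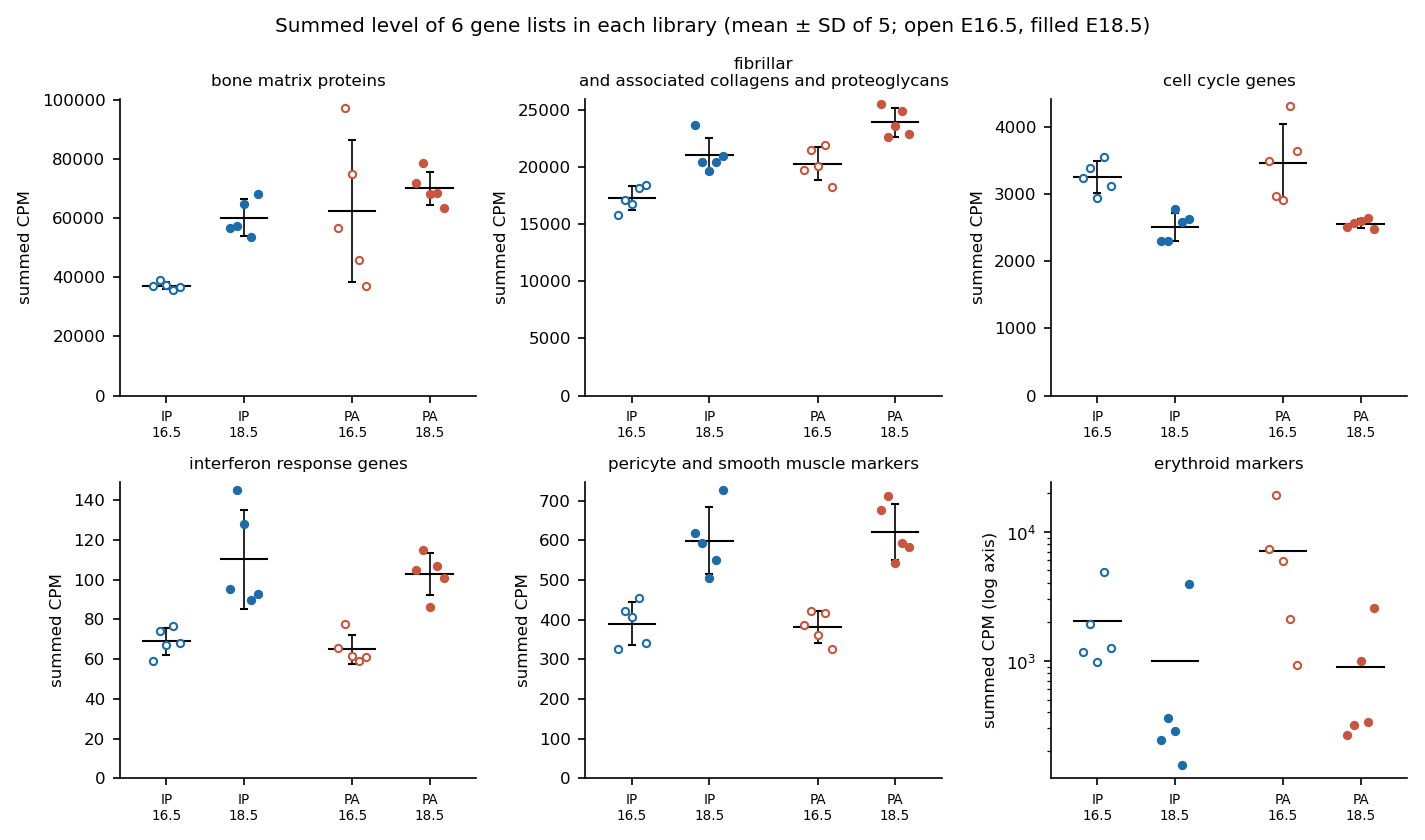
Summed CPM of the members of 6 gene lists in each library, at E16.5 (open) and E18.5 (filled) in the interparietal OF (blue) and the parietal OF (red); the erythroid axis is logarithmic. Bone matrix sums of the 2 ages were apart in the interparietal OF and overlapped in the parietal OF, where the E16.5 libraries ran from 37083 to 97200.

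The change in the fronts was compared with that in the SM of the same embryos, where 585 genes passed (155 higher, 430 lower, 2.96%). Of the 24 shared genes 23 had the same sign in the SM and 15 were called there. The test of the difference between the mean change of the fronts and that of the SM passed in 25 genes (0.126%), 17 positive and 8 negative (36 and 5 without TMM), and 5 of the 228 genes called in either front were among them. Fhl1 was 1 of them (difference 1.09 ± 0.23, adjusted p = 0.00946), with a log2 fold change of -0.08 in the SM (adjusted p = 0.940). Tppp3, a tubulin-binding protein, stood at 11.4 to 24.2 CPM and then at 45.6 to 116 in the parietal OF and at 5.49 to 42.5 and then at 5.45 to 12.4 in the SM (2.98 ± 0.55, adjusted p = 0.00302). Sytl2, a Rab27 effector of vesicle transport, differed by 1.55 ± 0.32 (adjusted p = 0.00946). In the other direction Socs2, which limits growth hormone signalling, rose in the interparietal OF from 4.87 to 6.92 CPM up to 13.3 to 24.1 (adjusted p = 1.42e-06) and in the SM from 7.71 to 11.1 up to 45.3 to 72.5, a difference of -1.31 ± 0.28 (adjusted p = 0.0102). The cholesterol exporter Abca1 fell in the parietal OF (-0.76, adjusted p = 0.0243) and had a log2 fold change of 0.52 in the SM (difference -1.0 ± 0.23, adjusted p = 0.0430). With limma-voom none of these differences passed, 550 genes having an unadjusted p under 0.05, and DESeq2 called 88.

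The fronts of the coronal, frontal and sagittal sutures, 40 libraries of the same 2 ages from other embryos, changed in 3511 genes (17.8%), and all 24 shared genes were called there with the same sign. The change in the lambdoid fronts differed from theirs in 317 genes (1.60%), 113 positive and 204 negative, against 175 and 168 with median-ratio size factors, 259 and 279 with DESeq2, 46 and 173 with limma-voom, and 47 and 658 without TMM, where the median of all genes moved from -0.0175 to -0.169. Of the 228 genes called in either lambdoid front 25 differed, among the 24 shared genes only Podn (0.87 ± 0.24, adjusted p = 0.0355). Manf (difference -1.0 ± 0.19, adjusted p = 0.00146) and Hspa5 (-0.68 ± 0.15, adjusted p = 0.00886) had log2 fold changes of 0.27 and 0.19 in the other fronts. Ccn3, a matricellular protein, fell in the interparietal OF from 33.9 to 94.3 CPM down to 7.35 to 26.6 (-1.91, adjusted p = 0.0408, and not when any of 8 embryos was left out, adjusted p up to 0.166), against 0.46 in the other fronts (difference -2.14, adjusted p = 0.00152). Igf2 (0.86, adjusted p = 0.00146) and Zfp521 (0.47 ± 0.11, adjusted p = 0.0132) differed upward, with -0.33 and -0.07 in the other fronts.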

How the data were processed

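Laser-captured tissue from C57BL/6J embryos had been amplified (Ovation RNA-Seq V2) and sequenced by the authors, who aligned reads to mm10 with STAR 2.5.3a and deposited unstranded featureCounts 1.6.4 counts per GENCODE vM22 gene; overlapping and antisense genes can share reads. The deposited counts (55487 genes, 55394 with a symbol) were used as they stand. The 19768 genes that reached 1 CPM in more than 10% of the 100 libraries in the first laser-captured set were scaled by TMM and tested with edgeR 4.0.16 quasi-likelihood fits over 20 groups (R 4.3.3), with Benjamini-Hochberg adjustment over all tested genes and a threshold of 0.05. CPM values are TMM-scaled. Samples were grouped by GEO labels. The front libraries held 8461589 to 11294521 counts. Alternatives used DESeq2 1.42.0, limma-voom (limma 3.58.1, the authors' method), other scalings, filters, blocks, litter sums, thinning and leaving out each embryo. Scripts were tested on simulated data. Replicate pairs differed beyond counting noise (chi-square per degree of freedom 5.37 to 65.3).

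The members and the 40 gene lists were chosen with earlier results of these data known. Named for the shared change were up to 12 genes per direction with the largest mean change among those called in both fronts with 1 sign, at a mean of at least 5 CPM, with at least 1 CPM in every library of the higher age and no provisional or ribosomal protein name; for the difference between fronts, 6 per direction by smallest p with the same filters on mean CPM and name; and up to 4 members of each list, with its defining members and 5 hedgehog genes, of which 1 is not reported here. Fronts with 1 number at 1 age share an embryo; the residual correlation of such pairs had a median of 0.0419, above 0.1 in 1 of 10, and numbers do not pair the ages. Promoters came from RefSeq (GRCm38.p6), over 250 bases before and 50 after each start.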

Additional observations from a re-analysis of the deposited data

Results flagged for a closer look

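Among 168 groups of 5 libraries of the genes whose CPM values are given (the other named genes were not examined), 14 held a library whose gap to its nearest neighbour exceeded 0.71 of the group's range; chance gives about 1 in 20 groups. Several were in E18.5 replicates 2, 4 and 5 and E16.5 replicates 4 and 5. At E16.5 in the interparietal OF, replicate 5 stood apart with 60.7 CPM of Fhl1, 472 of Col11a1 and 867 of Ptch1, and replicate 4 with 28.2 of Ptx3 and 2673 of Hbb-bs. At E18.5 in the interparietal OF, replicate 2 stood apart with 54.7 CPM of Podn and replicate 5 with 95.7 of Dmp1 and 2087 of Hbb-bs. At E16.5 in the parietal OF, replicate 4 had 364 CPM of Ccnd1, and replicate 3 had the group's single read of Ifit1 (0.103 CPM). At E18.5 in the parietal OF, replicate 4 had 1395 CPM of Bgn and 58.4 of Igfbp7, replicate 2 had 793 of Tnn, and replicate 3 had 8.67 of Mmp9.

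The change with age differed from that in the SM of the same suture, by the edgeR test of the difference itself, in 5 named genes, with log2 differences of 1.09 for Fhl1, 2.98 for Tppp3, 1.55 for Sytl2, -1.31 for Socs2 and -1.0 for Abca1. It differed from the fronts of the other sutures in 9, with 0.87 for Podn, 0.47 for Zfp521, 0.86 for Igf2, -1.0 for Manf, -0.68 for Hspa5, -0.83 for Fbn1 (adjusted p = 0.0161), -2.14 for Ccn3, -0.74 for Sparcl1 (adjusted p = 0.0320) and -1.06 for the craniofacial transcription factor Alx1 (adjusted p = 0.0334). The other sutures were taken from other embryos than the lambdoid suture, so that in these 9 differences suture and embryo cannot be told apart.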

How the results depend on the processing

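No call of a named gene changed sign under any alternative run. Counts of calls moved with the spread used and with the tool. In the order interparietal OF, parietal OF, both fronts and mean, 57, 195, 24 and 650 became 509, 1119, 238 and 2244 with the 20 lambdoid OF libraries alone, and 493, 1082, 228 and 2220 after thinning these to the smallest total. With the embryo as a random replicate block (limma-voom) they became 520, 1022, 231 and 1955, and with the replicate number as a replicate block 469, 1003, 211 and 2168, although no embryo has both ages. Among the calls of named genes 7 missed the threshold under the embryo block and 2 under the number block. With litter sums (2 litters against 4) 127, 137 and 45 passed in the interparietal OF, the parietal OF and both. DESeq2 gave 126, 322 and 56, limma-voom 6, 70 and 3 with 362 for the mean, and total counts without TMM 121 in the parietal OF. Embryo sums gave 1764 for the mean, where 2 of 103 named calls were lost. The difference between the fronts passed in 5 genes with DESeq2 and in 1 with either fixed block, the embryo or the number. The difference from the SM passed in 25 genes, and in 41 without TMM, 88 with DESeq2, 0 with limma-voom and 38 with no filter on low counts. The difference from the other fronts passed in 317 genes, and in 705 without TMM and 538 with DESeq2. The causes of these shifts were not tested. Of the named calls, limma-voom lost 78, litter sums 50, total counts without TMM 43, no filter 13, filterByExpr 8, DESeq2 5 and median-ratio size factors 4.

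With each embryo left out in turn, 21 to 39 genes passed in the interparietal OF, 81 to 242 in the parietal OF, 8 to 20 in both, 416 to 579 for the mean, 0 for the difference between the fronts, 16 to 27 against the SM and 172 to 256 against the other fronts. The interparietal count was lowest without E16.5 replicate 4 (21) and also under 57 by more than 1.5 times without E16.5 replicate 2 (34) or 5 (37) and E18.5 replicate 2 (32), 3 (28) or 5 (34). The parietal count fell most without E16.5 replicate 2 (81) or E18.5 replicate 4 (81), then E16.5 replicate 1 (97) and E18.5 replicate 5 (126), and was highest without E16.5 replicate 5 (242). Of 80 list sums, 17 passed an exact permutation test of 5 libraries against 5 (two-sided, smallest p 0.00794, adjusted over the 80), and 0 did with any embryo left out, where the smallest p of 4 against 5 is larger. Litter sums, thinning and blocks were not run for the comparisons with the SM and the other fronts. Genes of few reads, such as Ifit1, are limited by depth: 3 counts over 5 libraries are 0.0555 CPM in the interparietal OF and 0.0589 CPM in the parietal OF at E16.5.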

Other observations

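The change with age in the lambdoid fronts also differed from that in the SM in genes that passed in neither front. Cdkn1a, an inhibitor of the cell cycle, had a log2 difference of 2.17, with -1.82 in the SM, and Bmp3, a BMP family member made by osteoblasts, had 2.13. The endothelial receptors Aplnr (-2.60) and Kdr (-1.83) lay on the other side. Of 15 endothelial markers 9 rose in the SM, where 0.784% of all genes rose, with a median log2 fold change of 1.37 there. The median difference between the fronts and the SM was -1.41. That difference was negative in 14 of the 15 and passed in 1 (0.126% of all genes passed). Of the 32 cell cycle genes 28 fell in the SM, where 2.96% of all genes passed in either direction. Their median log2 fold change there was -1.03. For these 32 genes the difference between the fronts and the SM was positive in 31, with a median of 0.56, and passed in none. These genes were chosen after their values were seen.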
